A study of Mus musculus with 4 samples.

Results

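Interferon-stimulated genes were followed in myeloid cells of the atherosclerotic mouse aorta. The module is a list of 47 genes, chosen with earlier results of these data known. Of these, 46 are rows of the count table of 18825 genes and make up the module described here; Mx2 was not analysed here. Live aortic leukocytes that carry CD45 were taken from Apoe-/- mice after 13 weeks of western diet, and their transcripts were counted with 10x Genomics 3' single-cell sequencing. All samples belong to this 1 group, so no comparison with untreated or chow-fed mice is possible. The series text gives 6 mice, and the titles give 2 biological replicates with 2 libraries each; how the mice were divided over them is not stated in the sources used here. Apoe-/- mice lack apolipoprotein E everywhere, retain cholesterol-rich lipoproteins in blood and form plaques. The table holds the 3002 cells kept as myeloid in the series text, with 14 numbered clusters.

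Interferons are secreted proteins that announce viral or other foreign nucleic acid. Type I interferons bind the receptor IFNAR, whose kinases JAK1 and TYK2 activate the factor ISGF3, in which STAT2 and IRF9 are subunits and which binds the interferon-stimulated response element (ISRE) in promoters. Interferon gamma acts through its own receptor and the GAS element. The induced genes encode antiviral effectors, nucleic acid sensors, components of the pathway itself and brakes on it, and interferon signatures are a known feature of a subset of plaque macrophages.

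The promoters of the members were searched for the ISRE and the GAS element, with the levels described below already known. Promoters of RefSeq on GRCm38.p6, 250 bases before to 50 bases after each start site, were in the table for 37 of the 47 members, as 45 promoters. The ISRE was searched as GAAA, any 2 bases and GAAA again, on both strands and with overlapping matches allowed, and was found for 22 of 37 members (59.5%) against 3.99% of 27025 genes, or in 23 of 45 member promoters (51.1%) against 3.44% of 32851 promoters. The GAS element, searched as TTCCNGGAA on both strands, was found for 3 of 37 members, Gbp7, Bst2 and Ifit2 (8.11%), against 1.35% of genes. A match describes these letters only; the binding of a factor was not measured. The 180 bases before the start site are given below for 8 members, 5′ to 3′ on the strand of the gene, with ISRE matches on either strand in capitals. Ifit1, Ifit3 and Rsad2 are shown because they help to choose the cells described further on, Oasl1, Isg15, Oas3 and Irgm1 because they are among the members with the largest differences in those cells, and Samhd1 because it was abundant and was not called there. Oasl1, which had the largest difference, and Samhd1 held no match. Isg20, with a difference as large as that of Oas3, and Ifit2, which also helps to choose the cells, held no ISRE match in any of their 3 and 2 promoters and are not printed.
Oasl1, chr5:114923060-114923239, plus strand: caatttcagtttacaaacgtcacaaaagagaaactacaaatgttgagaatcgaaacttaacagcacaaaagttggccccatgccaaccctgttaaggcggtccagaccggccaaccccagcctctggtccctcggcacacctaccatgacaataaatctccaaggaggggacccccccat
Isg15, chr4:156200819-156200998, minus strand: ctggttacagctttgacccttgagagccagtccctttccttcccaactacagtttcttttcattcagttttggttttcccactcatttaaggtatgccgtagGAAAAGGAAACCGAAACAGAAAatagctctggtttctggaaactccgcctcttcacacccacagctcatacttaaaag
Ifit1, chr19:34640709-34640888, plus strand: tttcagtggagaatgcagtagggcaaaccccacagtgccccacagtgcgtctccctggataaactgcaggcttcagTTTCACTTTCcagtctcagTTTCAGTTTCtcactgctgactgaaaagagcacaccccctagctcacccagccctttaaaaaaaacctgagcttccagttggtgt
Ifit3, chr19:34583349-34583528, plus strand: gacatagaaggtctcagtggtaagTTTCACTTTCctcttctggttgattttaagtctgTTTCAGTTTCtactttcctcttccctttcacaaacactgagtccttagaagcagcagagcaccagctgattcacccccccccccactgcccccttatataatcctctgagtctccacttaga
Rsad2, chr12:26456453-26456632, minus strand: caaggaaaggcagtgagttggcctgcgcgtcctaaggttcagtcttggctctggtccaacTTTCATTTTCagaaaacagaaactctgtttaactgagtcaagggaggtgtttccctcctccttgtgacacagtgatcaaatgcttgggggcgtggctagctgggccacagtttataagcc
Oas3, chr5:120777660-120777839, minus strand: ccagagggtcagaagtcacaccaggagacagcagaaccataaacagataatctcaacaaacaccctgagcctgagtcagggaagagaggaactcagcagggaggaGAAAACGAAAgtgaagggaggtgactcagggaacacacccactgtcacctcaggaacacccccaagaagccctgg
Irgm1, chr11:48871421-48871600, minus strand: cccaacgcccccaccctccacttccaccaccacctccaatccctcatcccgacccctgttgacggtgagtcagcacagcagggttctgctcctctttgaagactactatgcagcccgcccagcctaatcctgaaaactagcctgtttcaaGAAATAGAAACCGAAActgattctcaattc
Samhd1, chr2:157135097-157135276, minus strand: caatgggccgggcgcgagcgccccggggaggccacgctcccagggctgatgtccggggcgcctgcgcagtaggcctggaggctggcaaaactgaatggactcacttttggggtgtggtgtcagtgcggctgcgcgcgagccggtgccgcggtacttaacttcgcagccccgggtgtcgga
In Isg15, 3 overlapping matches made 1 run of 22 bases, from 78 to 57 bases before the start site. Ifit1 and Ifit3 had a pair each on the opposite strand, written there as TTTCACTTTC and TTTCAGTTTC. Irgm1 had 2 overlapping matches from 30 to 15 bases before its start, and Oas3 and Rsad2 had 1 match each.

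Depth set what could be read. The 4 libraries, named 1-1, 1-2, 2-1 and 2-2 for their replicate and number, held 236 to 1231 cells and 1698585 to 5954716 unique molecular identifiers (UMIs, 1 for each transcript captured). Median UMIs per cell ran from 4196 in library 2-2 to 6672 in library 1-1, and no cell barcode was shared between libraries. Clusters 3, 8 and 10 were shallow, with medians of 834, 980 and 805 UMIs against 9680 in cluster 6. Clusters were checked against marker lists, counting a marker where its level was at least 2 times its mean elsewhere. Monocyte-like cluster 5 had 6 of 7 monocyte markers and neutrophil-like cluster 7 had 6 of 6 neutrophil markers. Dendritic-like clusters 4, 11 and 12 had 5, 3 and 4 of 8 dendritic markers, and cluster 4 also had 7 of 8 plasmacytoid markers. Macrophage-like clusters 0 and 2 had 6 and 5 of 9 macrophage markers. Clusters 1, 3, 8 and 13, grouped with them below, had only 1, 3, 2 and 1 by this count. Cluster 6 had 5 of 5 natural killer cell markers and cluster 9 had 6 of 6 fibroblast markers, although the cells are labelled myeloid; both are named by number only.

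Over all cells the module took 0.603% ± 0.030 of UMIs (SD, n = 2 biological replicates). By library the share was 0.614% in 1-1, 0.572% in 1-2, 0.664% in 2-1 and 0.592% in 2-2, so that library 2-1 was the highest. A few abundant members made up most of it: Ifitm3, which blocks the fusion of viruses with endosomes, and Ifi27l2a, a small hydrophobic protein, held 48.3% of the 95909 module UMIs. Together with Bst2 (tetherin, which holds budding virus on the cell) and Slfn2 (a schlafen protein of leukocyte quiescence) they held 63.6%, and the 42 other members shared 36.4%. Without Ifitm3 and Ifi27l2a the module share was 0.312% ± 0.0073.

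Levels below are counts per 1000000 UMIs (CPM) computed here from the deposited counts. A UMI marks the 3' end of a transcript, so these levels do not scale with transcript length. Over all cells 11 members exceeded 100 CPM, 32 lay between 10 and 100 and 3 lay under 10, with a median of 40.9. Ifitm3 (chromosome 7, 141009586 to 141010770, minus strand, GRCm38) was the most abundant, at 1658 CPM in library 1-1, 1634 in 1-2, 1878 in 2-1 and 1727 in 2-2. Ifi27l2a (chromosome 12, 103442167 to 103443680, minus strand) had 1262, 1067, 1522 and 1079 CPM in the same order. Both were highest in library 2-1. Bst2 reached 513 ± 24.8 CPM (SD, n = 2 biological replicates) and Slfn2 reached 409 ± 49.5. The enzyme Samhd1, which empties the nucleotide pool that viruses need, reached 193 ± 5.82. The DNA-binding PYHIN proteins Ifi203 and Ifi204 stood at 163 ± 8.57 and 161 ± 15.1. The ubiquitin ligase Trim30a had 124 ± 10.7, the ubiquitin-like Isg15 had 114 ± 2.06, the nuclear body protein Sp100 had 111 ± 1.53 and the mono-ADP-ribosyltransferase Parp14 had 103 ± 11.98.

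Classical type I interferon targets were scarcer. Isg15 (chromosome 4, 156199424 to 156200818, minus strand) had 141 CPM in library 1-1, 109 in 1-2, 117 in 2-1 and 109 in 2-2. Rsad2 (viperin, which makes a chain-terminating nucleotide; chromosome 12, 26442746 to 26456452, minus strand) had 40.6, 43.7, 80.4 and 39.6 CPM in the same order, and stood apart in library 2-1. Ifit1, Ifit2 and Ifit3, which bind foreign RNA ends, averaged 20.7 ± 5.68, 20.1 ± 9.72 and 28.5 ± 10.2 CPM. The rarest members were Gbp5 at 6.30 ± 0.329, the nucleotide kinase Cmpk2 at 6.95 ± 3.55 and Ifi44 at 8.03 ± 1.58 CPM. Members with close relatives in the genome (the Phf11, Ifi200, Oas, Gbp and Slfn families, Ifit3) are uncertain where reads could be split between copies.

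Between clusters the module share varied several-fold. Its mean over the replicates was highest in shallow cluster 3, at 0.769% in replicate 1 and 0.918% in replicate 2. Monocyte-like cluster 5 followed with 0.772% and 0.765%, and macrophage-like cluster 0 with 0.718% and 0.802%; these 3 clusters overlapped. Macrophage-like cluster 2 had 0.667% and 0.638%, and cluster 1 had 0.485% and 0.502%. Dendritic-like cluster 12 had only 0.257% and 0.238%, and cluster 8 had 0.193% and 0.131%, both below all other clusters in each replicate. The other clusters lay between 0.420% and 0.587% in both replicates. Much of the order followed Ifitm3 and Ifi27l2a: without them cluster 0 led with 0.3985% ± 0.023 (SD, n = 2), cluster 7 had 0.379% ± 0.032, cluster 5 had 0.360% ± 0.0011, cluster 3 fell to 0.308% ± 0.038 and cluster 12 had 0.208% ± 0.018. Cluster 12 was then no longer set apart, with cluster 13 at 0.199% ± 0.028 and cluster 9 at 0.214% ± 0.00017. Cluster 8 stayed the lowest, at 0.111% ± 0.029. The clusters were drawn by the authors from these same counts, so differences between them describe the clusters.

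**Figure D1:**
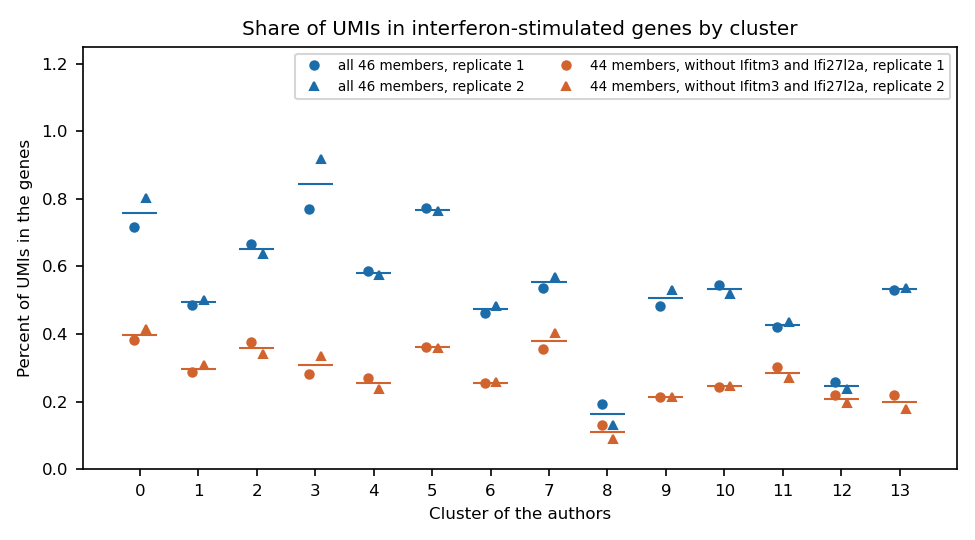
Percent of UMIs in the module (vertical axis) for the 14 clusters (horizontal axis), for all 46 members and for the 44 without Ifitm3 and Ifi27l2a. Circles and triangles are biological replicates 1 and 2 and bars are their means; cluster 12 has 0.257% and 0.238% with all members, against 0.718% and 0.802% in cluster 0.

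Roles shared cluster patterns in part. The ISG15 system and the nucleotide and RNA enzymes were both highest by mean in cluster 7, at 355 and 1460 CPM. In the ISG15 system Isg15 had 288 and 291 CPM in replicates 1 and 2 of neutrophil-like cluster 7, above its values of 125 and 134 in cluster 0 and 140.5 and 158 in cluster 5. Rsad2 had 178 and 336 CPM in cluster 7, and 70.4 and 135 in cluster 0. In replicate 2 of cluster 0, 1 cell of library 2-1 alone held 151 Rsad2 UMIs. The exonuclease Isg20 had 96.0 and 168 CPM in cluster 7 against 21.3 and 20.4 in cluster 0. These 3 members were thus highest in the neutrophil-like cells in both replicates, from 86, 67 and 35 UMIs. The 3 Ifit genes together were highest in cluster 0, at 162 CPM, followed by 126 in cluster 3, 109 in cluster 7 and 73.9 in cluster 4, and stood at 9.32 in cluster 12.

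Some members marked dendritic-like clusters. Ifi205, a PYHIN protein, had 251 and 191 CPM in replicates 1 and 2 of cluster 11, where it was among the 10 genes highest by fold, against 1.64 and 4.59 in cluster 0. Gbp2 and Gbp5, guanylate-binding GTPases that act on membranes of intracellular microbes, had 91.8 ± 11.1 and 61.9 ± 31.2 CPM (SD, n = 2) in cluster 12. Their levels in cluster 0 were 24.4 ± 4.90 and 6.33 ± 5.47, and cluster 12 lay above cluster 0 in both replicates for each gene. Irf7, the factor that amplifies type I interferon production, had 1 UMI in cluster 12 (0 and 6.64 CPM) against 100.3 and 127 CPM in cluster 5. Zbp1, a sensor of left-handed nucleic acid, had 110 and 120.4 CPM in cluster 5 and 53.2 and 57.1 in cluster 0.

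**Figure D2:**
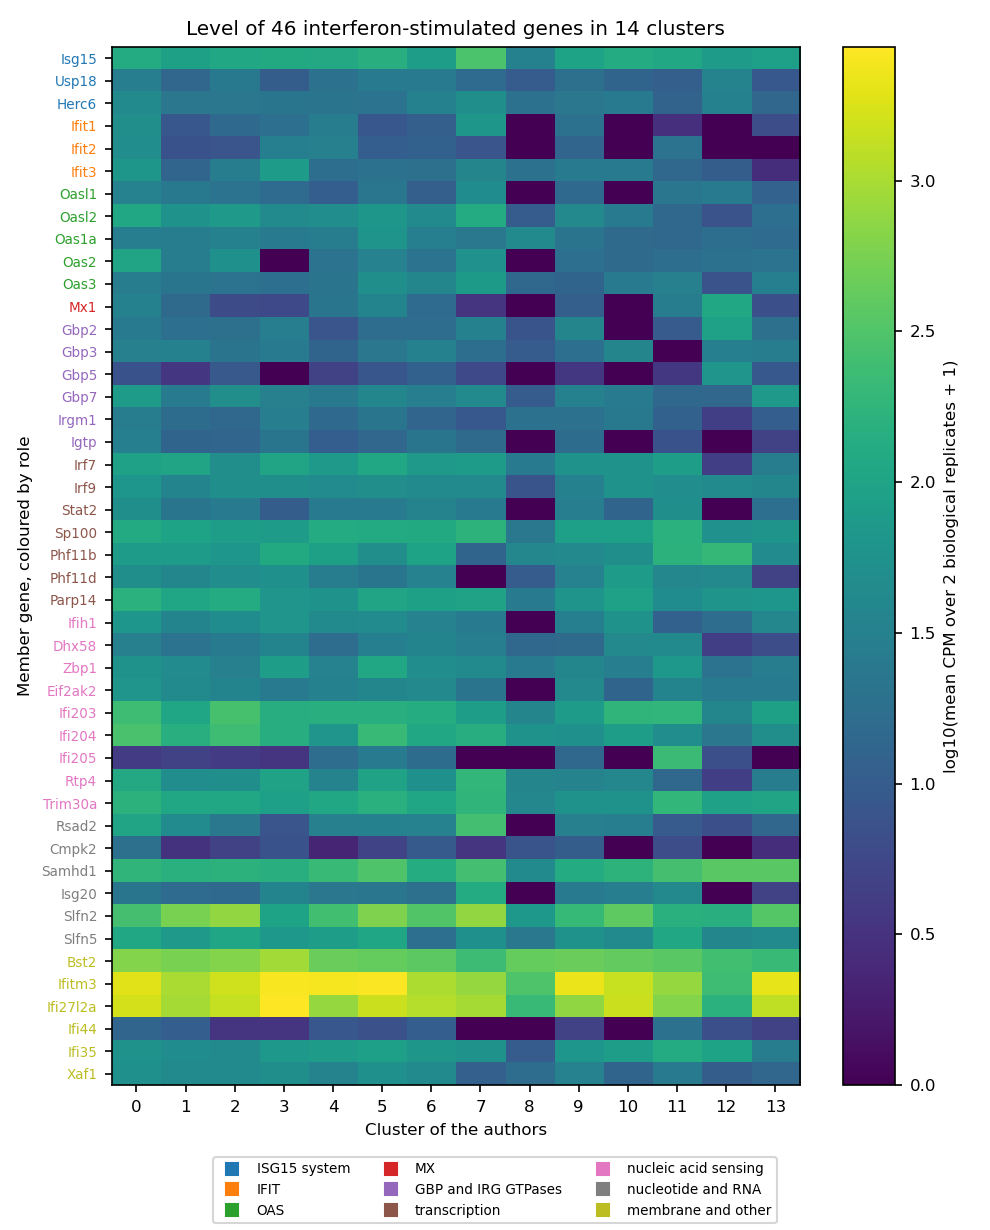
Colour gives log10 of the mean CPM over 2 biological replicates plus 1, for the 46 members (vertical axis, name coloured by role) in the 14 clusters (horizontal axis). Ifitm3 and Ifi27l2a are bright in most clusters, Ifi205 stands out in cluster 11 at 221 CPM, and Rsad2 in cluster 7 at 257 CPM.

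Differences between clusters were tested with edgeR's quasi-likelihood test on counts summed per cluster and biological replicate (28 sums, 13 residual degrees of freedom), with Benjamini-Hochberg adjustment over all 6657 genes tested. Since the clusters came from the same counts, these p-values are too small. Of 43 members that passed the filter on low counts, 40 differed between any of the 14 clusters, beside 79.5% of all genes tested, and the members' share is read against that. Usp18, Oasl1 and Irgm1 were not called, with adjusted p = 0.117, 0.0525 and 0.226. Igtp, Cmpk2 and Ifi44 were too scarce to be tested.

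Between the 6 clusters grouped as macrophage (0, 1, 2, 3, 8 and 13, of which 1, 3, 8 and 13 had at most 3 of the 9 markers) and the 3 dendritic clusters (4, 11 and 12), 7 members were higher and 5 lower in macrophages, 27.9% of those tested, beside 29.4% of all genes (10.5% higher, 18.9% lower). The share was close to that of all genes. Ifi27l2a had 1370 ± 103 CPM (SD, n = 2) in macrophage and 532 ± 79.3 in dendritic clusters, a log2 change of 1.32 ± 0.12 (SE, edgeR adjusted p = 1.17e-11). Rtp4, which binds and restrains viral RNA, and Ifi204 were higher by 2.15 ± 0.36 and 1.62 ± 0.25. Gbp3 was called higher, at 24.2 ± 3.76 against 13.98 ± 14.6 CPM; its 0 UMIs in cluster 11 make the fitted fold depend on the prior count, and its mean in cluster 12 alone was 29.98 ± 42.4 CPM. Ifi205, Mx1 (a dynamin-like antiviral GTPase), Ifi35 and Phf11b were lower, with log2 fold changes of -4.20 ± 1.26, -2.88 ± 0.59, -1.50 ± 0.23 and -1.08 ± 0.18. Ifi205 and Mx1 rested on single dendritic clusters, cluster 11 and cluster 12. Ifi205 had 0 UMIs in 2 of the compared clusters and Mx1 in 1, so their fitted folds also depend on the prior count. Without library 2-2, 1 member was called higher, and Ifi27l2a, Rtp4 and Gbp3 were not. Without library 1-2, 3 were called lower. Ifi205 was not called without library 1-1, Mx1 without 1-2, and Phf11b without 1-2 or 2-2. Without the shallow clusters 3, 8 and 10, 15 members were called higher. The share of all genes called in that setting is not given here, so this count is not read as a result about the members.

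In monocyte-like cluster 5 against the mean of clusters 0, 1 and 2, 10 of 43 members were higher and 4 lower. The members called were 32.6% of those tested, beside 32.2% of all genes called (17.5% higher, 14.6% lower). The members' share was thus close to that of all genes. Zbp1 had 115 ± 7.58 CPM (SD, n = 2) against 43.6 ± 2.08, a log2 change of 1.45 ± 0.17 (SE, edgeR adjusted p = 4.79e-09). Ifi205 rose by 2.75 ± 0.42, Mx1 by 1.33 ± 0.38 and Oas3, an oligoadenylate synthase that activates RNase L, by 1.19 ± 0.25. Phf11d, Oas2, Phf11b and Bst2 were lower, at -1.09 ± 0.26, -0.70 ± 0.22, -0.56 ± 0.21 and -0.53 ± 0.15. Members of the Oas family went both ways, with Oas3 and Oas1a higher and Oas2 lower. DESeq2 called 6 higher, among which Mx1 was absent, 6 were called higher without library 2-2, and 1 was called lower without library 1-2. Phf11b was not called without library 1-1, 1-2 or 2-1, Oas2 without 1-2, nor Bst2 without 1-2 or 2-2.

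Dendritic-like cluster 12, which carried Ccr7, the chemokine receptor of dendritic cells that migrate to lymph nodes, was compared with clusters 4 and 11. Of 43 members 4 were higher and 8 lower, beside 20.4% of all genes called (9.61% higher, 10.8% lower). Gbp5 had a log2 fold change of 4.31 ± 0.94 (SE, edgeR adjusted p = 0.000788), Gbp2 of 3.62 ± 0.61, Mx1 of 2.08 ± 0.56 and Samhd1 of 0.68 ± 0.22. The replicates of Mx1 lay far apart in cluster 12, at 116 ± 107 CPM (SD, n = 2) against 24.5 ± 6.76 in clusters 4 and 11. Irf7 and Ifi205 were lower, at -3.99 ± 0.87 and -3.64 ± 0.96. Stat2 and Isg20 were called lower with 0 UMIs in cluster 12, where fitted folds depend on the prior count, against 38.0 ± 14.03 and 31.4 ± 17.1 CPM in clusters 4 and 11. Ifitm3 stood at 237 ± 97.4 against 1625 ± 102 CPM, a log2 fold change of -2.42 ± 0.21. With each cell thinned to 1000 UMIs, 12 members could be tested and 0 were called higher by edgeR, 0 also at an unadjusted p under 0.05, and 4 lower; DESeq2, at full depth, called 6 higher. Cluster 12 rested on 44 cells, the comparison had too few cells without library 1-2 or 2-2, and without library 2-1 the members called higher were 2, without Samhd1; Isg20 was not called without library 1-1.

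The spread of the module over cells was read in the 2665 cells with at least 1000 UMIs. The 5% of cells with the highest module share held 12.3% of module UMIs and 3.97% of all UMIs. With cells ranked in the same way by 6 strongly inducible genes, Ifit1, Ifit2, Ifit3, Rsad2, Cmpk2 and Usp18 (the protease that removes ISG15 and blocks IFNAR), the top 5% held 59.3% of their 2311 UMIs. Ranked by the 40 other members, it held 11.8% of a far larger number of UMIs. Cells were ranked by the UMIs then summed, and genes of like abundance were not compared, so these shares only describe the counts. None of the 6 had a UMI in 1950 cells, 389 cells held 1 UMI and 146 held 2. At the upper end 1 cell of cluster 0 in library 2-1 held 263, of which 151 were Rsad2 and 36 Cmpk2. That cell had 8479 UMIs, 6.12% of them in the module, and at least 1 UMI of 42 of the 46 members.

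**Figure D3:**
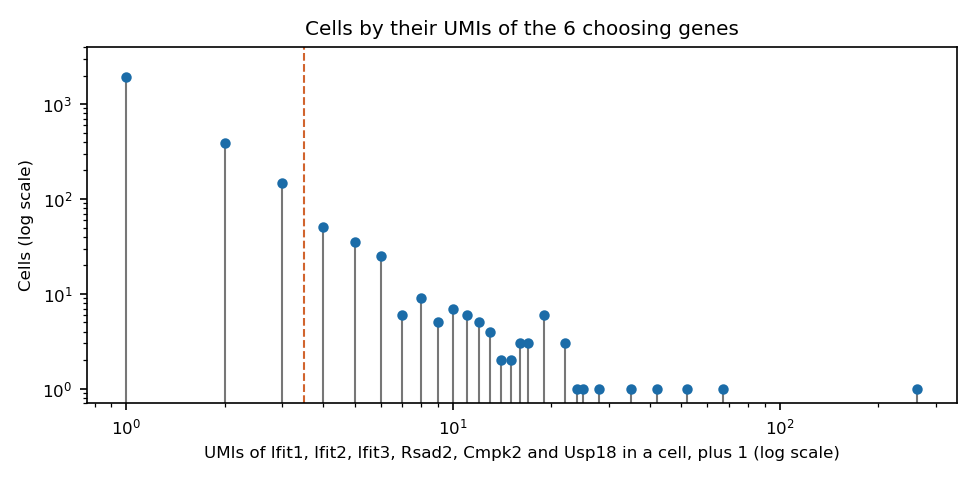
Number of cells (vertical axis, log scale) by UMIs of the 6 genes in a cell plus 1 (horizontal axis, log scale). The dashed line marks the minimum of 3 UMIs; 1950 cells hold 0 UMIs, and 1 cell holds 263.

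Cells with at least 3 UMIs of the 6 genes together are called Ifit-high here. The 6 genes chose these cells and are not tested in them. There were 180 among 2665 cells, 6.74% ± 1.82 (SD, n = 2 biological replicates), and 51 of them held exactly 3 UMIs, beside 146 cells with 2 just outside. They held 70.5% of the UMIs of the 6 genes, 14.4% of those of the 40 other members and 8.63% of all UMIs. The limit depends on depth: Ifit-high cells had a median of 6070 UMIs and the other cells 4868. With each cell thinned to 3000 UMIs, for the 2108 cells deep enough, 3.23% were Ifit-high, and with each thinned to 1000 UMIs 0.976% were.

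Ifit-high cells occurred in all 4 libraries and in most clusters. By library they were 19 of 206 cells (9.22%, exact 95% binomial interval 5.65 to 14.03) in 1-1, 53 of 1114 (4.76%, 3.58 to 6.18) in 1-2, 48 of 468 (10.3%, 7.66 to 13.4) in 2-1 and 60 of 877 (6.84%, 5.26 to 8.72) in 2-2; these intervals cover counting error only. The libraries with deeper cells had the larger shares, and thinned to 3000 UMIs the shares were 4.14%, 3.00%, 3.94% and 2.89% in the same order. Cluster 0 held 73 of the 180 cells, 11.6% of its cells (9.16 to 14.3), against 5.26% (4.33 to 6.33) in all other clusters together. Its share was above that of the other clusters in each library, with 18.2% against 7.51% in 1-1, 7.73% against 3.97% in 1-2, 17.6% against 7.58% in 2-1 and 11.2% against 5.19% in 2-2. Thinned to 3000 UMIs the shares in cluster 0 and elsewhere were 6.27% and 2.21%, with only 26 cells of cluster 7 deep enough. Thinned to 1000 UMIs they were 2.22% and 0.590%, and cluster 7 was above cluster 0 there, with 5 of 116 cells (4.31%).

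Neutrophil-like cluster 7 had 14 of 116 cells Ifit-high (12.1%, 6.76 to 19.4) at a median of only 1634 UMIs in its other cells. Cluster 9 had 10 of 89 (11.2%, 5.52 to 19.7) at a median of 8150 UMIs in its other cells, and 0 of 89 when thinned to 1000 UMIs. Cluster 1 had 23 of 542 (4.24%, 2.71 to 6.30), cluster 2 had 14 of 346 (4.05%, 2.23 to 6.70) and cluster 5 had 16 of 208 (7.69%, 4.46 to 12.2). Cluster 5 differed between replicates, with 4 of 110 and 12 of 98 cells. Dendritic-like cluster 12 had 0 of 40 cells, which allows a share of up to 7.50% by the limit of 3 counts and 8.81% by the exact 95% interval, with 8 UMIs of the 6 genes in 7 cells at a median depth of 5269 UMIs. In the shallow clusters 8 and 10, 0 of 50 and 0 of 26 cells allow up to 6.00% and 11.5% by the same limit and 7.11% and 13.2% by the exact interval, which their depth could not resolve from the other clusters.

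**Figure D4:**
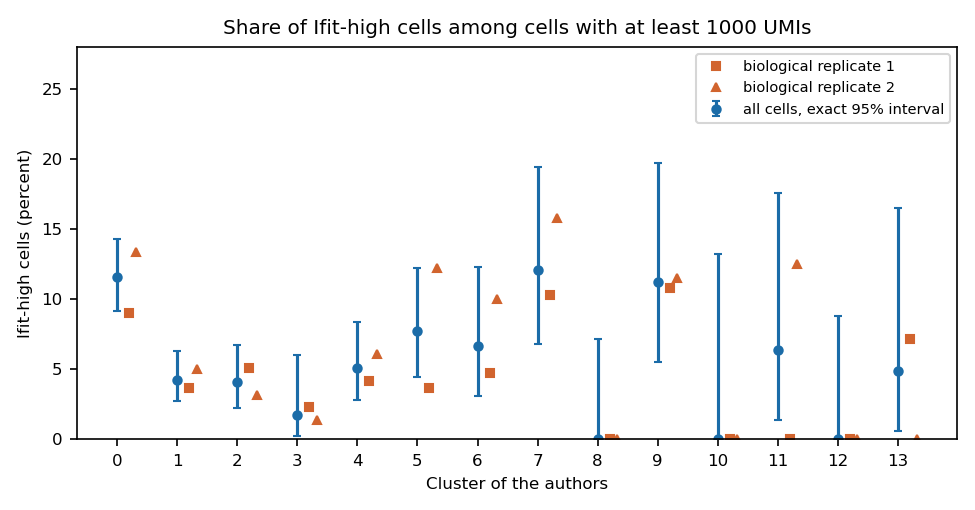
Percent of Ifit-high cells among cells with at least 1000 UMIs (vertical axis) in the 14 clusters (horizontal axis). Circles with bars are all cells with the exact 95% binomial interval, squares and triangles are biological replicates 1 and 2; cluster 0 is at 11.6% and cluster 1 at 4.24%.

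The other members were then read in genes that the choice had not used. Counts of Ifit-high and of other cells were summed within each of the 5 clusters that had at least 5 Ifit-high cells in both replicates (0, 1, 2, 4 and 7), giving 10 pairs of sums and 138 Ifit-high against 1773 other cells. Of the 40 other members 37 passed the filter on low counts, and 29 of these were higher in Ifit-high cells and 0 lower by edgeR's quasi-likelihood test, beside 1.98% of the 3746 genes tested (1.87% higher, 0.107% lower). At an unadjusted p under 0.05, 33 were higher and 0 lower, and DESeq2 called 31 higher and 0 lower. Many members passed the filter only through the cells in which they are high: 18 of the 37 passed on the counts of the other cells alone. Of these 18, 13 were higher and 0 lower, with a median log2 fold change of 1.09, beside 1.14% of the 2975 genes that passed in the same way, with a median of -0.08. Of the 19 that passed only with the Ifit-high cells 16 were higher; a difference in them is in part a condition of being tested, and their values below are a description. They were Oasl1, Oas3, Oas1a, Herc6, Mx1, Gbp2, Gbp3, Gbp7, Irgm1, Igtp, Isg20, Phf11d, Zbp1, Ifih1, Eif2ak2 and Xaf1, and Stat2, Irf9 and Dhx58, which were not called. With no filter 29 of all 40 other members were called higher, 26 of them among the 29 above. The median Ifit-high cell had a UMI of 19 of the 40 other members and the median other cell of 9, or 12 and 7 with both thinned to 3000 UMIs. Levels below average the 5 clusters within a replicate.

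**Figure D5:**
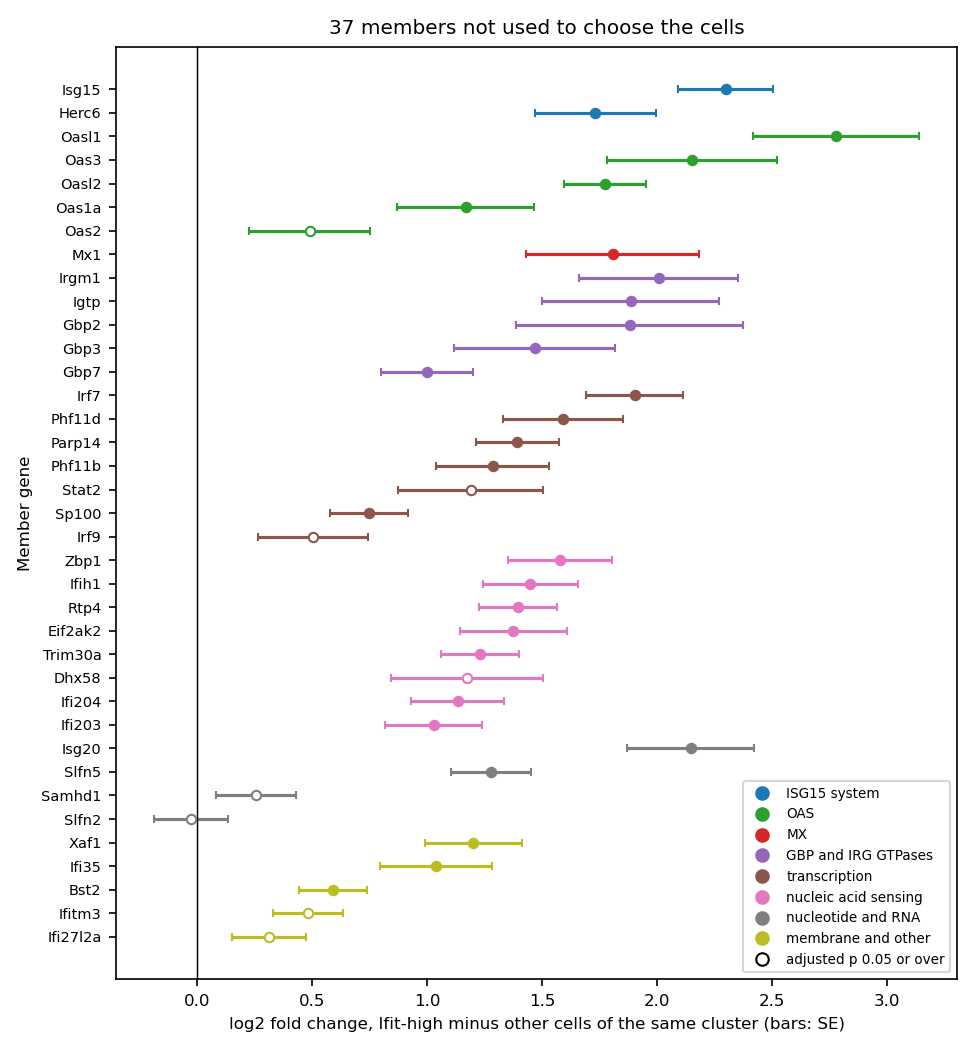
Log2 fold change in Ifit-high cells against the other cells of the same cluster (horizontal axis, bars are SE) for the 37 tested members that were not used to choose the cells (vertical axis, coloured by role). Filled points passed edgeR's test; most lie above 1, from Oasl1 at 2.78 down to Slfn2 at -0.03.

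In the ISG15 system both tested members rose. Isg15 had 631 and 452 CPM in Ifit-high cells of replicates 1 and 2 against 100.5 and 81.4 in the other cells, higher in 10 of 10 pairs, at a log2 change of 2.30 ± 0.21 (SE, adjusted p = 6.59e-07). Isg15 stood in 98 of the 138 Ifit-high cells. The ISG15 ligase Herc6 rose by 1.73 ± 0.26.

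Of the oligoadenylate synthase family, which senses double-stranded RNA, 4 of 5 rose. Oasl1 (chromosome 5, 114923240 to 114937915, plus strand), an inactive relative that restrains Irf7 translation, had 71.5 and 154 CPM against 13.1 and 11.4. Its log2 fold change, 2.78 ± 0.36 (SE, adjusted p = 6.23e-05), was the largest of the members tested. Oas3 had 92.0 and 97.1 CPM against 22.9 and 23.4, a log2 fold change of 2.15 ± 0.37. Oasl2 had 230 and 239.6 CPM against 64.0 and 59.5 and rose by 1.77 ± 0.18, in 10 of 10 pairs. Both replicates of the Ifit-high cells lay above both of the other cells for Oasl1, Oas3 and Oasl2. Of this family Oasl1, Oas3 and Oas1a passed the filter only with the Ifit-high cells, so their differences are in part a condition of being tested. Oas1a rose by 1.17 ± 0.30, while Oas2 had 75.2 and 74.7 CPM against 53.6 and 36.4, a log2 fold change of 0.49 ± 0.26 (adjusted p = 0.655).

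All 5 tested guanylate-binding and immunity-related GTPases were higher, and so was Mx1. All of them passed the filter only with the Ifit-high cells, so this count is in part a condition of being tested. Irgm1, which regulates the other immunity-related GTPases, had 45.2 and 60.5 CPM against 12.3 and 9.85 (2.01 ± 0.35, adjusted p = 0.00115). Igtp had 51.3 and 52.8 CPM against 15.9 and 8.95, a log2 fold change of 1.89 ± 0.38. Gbp2 had 92.4 and 47.1 CPM against 15.2 and 9.55 (1.88 ± 0.49), with an adjusted p of 0.0492 close to the threshold. Mx1 had 29.5 and 47.4 CPM against 9.61 and 14.2 and was higher in 6 of 10 pairs, the fewest of the members called (1.81 ± 0.37). Igtp was not called without library 1-1, 2-1 or 2-2 (adjusted p = 0.206, 0.304 and 0.0739), and Gbp2 was not called without library 1-1 or 2-2 (0.190 and 0.100). Gbp3 and Gbp7 rose by 1.47 ± 0.35 and 1.00 ± 0.20.

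Among regulators of transcription 5 of 7 rose. Irf7 had 324 and 160 CPM in Ifit-high cells against 63.0 and 56.9 in the others, higher in 10 of 10 pairs, at a log2 change of 1.90 ± 0.21 (SE, adjusted p = 8.53e-06). Parp14, Phf11b, Phf11d and Sp100 rose by 1.39 ± 0.18, 1.29 ± 0.25, 1.59 ± 0.26 and 0.75 ± 0.17. Stat2 and Irf9, subunits of ISGF3, were not called: Stat2 stood at 59.9 and 52.6 CPM against 26.1 and 29.8 (1.19 ± 0.32, adjusted p = 0.0508), and Irf9 at 83.5 and 63.1 against 42.3 and 44.4 (0.50 ± 0.24, adjusted p = 0.571).

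Of 8 tested members grouped here under nucleic acid sensing 7 rose, between 1.03 and 1.58 on the log2 scale. They were Zbp1 (1.58 ± 0.23), the RNA helicase Ifih1 (MDA5, 1.45 ± 0.21), Rtp4 (1.39 ± 0.17), the kinase Eif2ak2 (PKR, 1.38 ± 0.23), Trim30a (1.23 ± 0.17), Ifi204 (1.13 ± 0.20) and Ifi203 (1.03 ± 0.21). Dhx58 (LGP2) missed the threshold at 1.17 ± 0.33 (adjusted p = 0.0785). Of the nucleotide and RNA enzymes Isg20 had 138 and 123 CPM against 21.4 and 25.9, higher in 10 of 10 pairs (2.15 ± 0.28, adjusted p = 6.23e-05), and Slfn5 rose by 1.28 ± 0.17. Zbp1, Ifih1, Eif2ak2, Dhx58 and Isg20 passed the filter only with the Ifit-high cells.

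The 4 smallest changes were those of 4 of the 5 most abundant members, Ifitm3, Ifi27l2a, Slfn2 and Samhd1. Slfn2 had 448 and 533 CPM in Ifit-high cells against 530.1 and 526 in the others, with overlapping replicates and a log2 difference of -0.03 ± 0.16 (SE, adjusted p = 0.992). Samhd1 had 206 and 220.5 CPM against 190 and 185, a log2 fold change of 0.26 ± 0.17 (adjusted p = 0.736). Ifi27l2a, at 1528 and 1395 CPM against 1055 and 1131, had 0.31 ± 0.16 (adjusted p = 0.638). Ifitm3, at 2125 and 2158 CPM against 1475 and 1492, had 0.48 ± 0.15 (adjusted p = 0.156); its replicates did not overlap. These 4 were not called here, and Ifitm3 and Ifi27l2a were called with a limit of 2 UMIs, Samhd1 only with other choosing genes, and Ifitm3 without library 2-1 (0.69, adjusted p = 0.00134). Bst2 rose by 0.59 ± 0.15, Ifi35 by 1.04 ± 0.24 and the apoptosis-linked Xaf1 by 1.20 ± 0.21. Gbp5, Ifi205 and Ifi44 were too scarce to be tested. With library 1-2 left out only cluster 0 met the minimum number of cells, on 1 residual degree of freedom, and 1 member was called; with the counts thinned to 1000 UMIs 8 of 22 tested were.

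Members both with and without a promoter match were called higher in Ifit-high cells. Of 17 tested members with an ISRE match 15 were called, with a median log2 fold change of 1.29, and of 12 without a match in the window 9 were called, with a median of 1.40. Isg15 and Irgm1, whose matches overlap, stood at 2.30 and 2.01, and Oas3, with a single match, at 2.15. Oasl1 and Irf7 had no match in the window and stood at 2.78 and 1.90. In both groups many members passed the filter only with the Ifit-high cells, Oas3, Irgm1 and Oasl1 among them. Their calls and fold changes are in part a condition of being tested. These counts only describe the members, and the difference between the groups was not tested.

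Other genes of the interferon pathway were read from lists of 113 genes, 96 of them in the table and 62 tested. Of these 21 were higher in Ifit-high cells and 0 lower, beside the 1.98% of all genes called. On the counts of the other cells alone 42 passed the filter, and 7 of these were higher, Cxcl10 and Ms4a4c among them. Of the 20 that passed only with the Ifit-high cells 14 were higher, and a difference in them is in part a condition of being tested. Ddx58, Iigp1, Phf11a, Ube2l6, Ifi47, Dtx3l, Tor3a and Ddx60 are of this kind, and their values below are a description. None of the 7 tested receptors and kinases was called by edgeR, with Ifnar1 at -0.01 ± 0.22, Ifnar2 at 0.06 ± 0.18, Jak1 at -0.18 ± 0.14 and a median of -0.09; 0 of the 7 had an unadjusted p under 0.05 and DESeq2 called 0. Among the factors, sensors and brakes the RNA sensor Ddx58 (RIG-I) rose by 1.19 ± 0.26. Of the other induced genes 18 of 43 rose. Iigp1, an immunity-related GTPase, rose by 2.53 ± 0.38, Phf11a by 2.24 ± 0.39 and Cxcl10, a chemokine that draws activated T cells, by 1.91 ± 0.33. Cxcl10 had 524 and 577 CPM against 140.2 and 161. Ube2l6 (the conjugating enzyme of ISG15), Ifi47, Dtx3l, Tor3a, Ddx60 and Ms4a4c rose by 1.76 ± 0.38, 1.74 ± 0.29, 1.60 ± 0.25, 1.44 ± 0.27, 1.44 ± 0.26 and 1.39 ± 0.29. Ube2l6 was not called without library 2-2 (adjusted p = 0.318), nor Dtx3l without library 1-1 (0.0600), nor Ddx60 without library 1-1 or 2-2 (0.191 and 0.0809).

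Ifnb1, the gene of interferon beta (chromosome 4, 88522025 to 88522774, minus strand, GRCm38), was itself counted in few cells. There were 64 UMIs in 17 cells, 8 of them in cluster 0 and at least 1 in each of the 4 libraries. Of the 64 UMIs 53 lay in 9 Ifit-high cells, and all 6 cells with at least 3 Ifnb1 UMIs were Ifit-high. In the compared clusters its level was 14.1 and 58.7 CPM in Ifit-high cells of replicates 1 and 2 against 0.470 and 0.585 in the others, from 53 UMIs in 9 cells against 5 UMIs in 4. It was higher in 5 of 10 pairs and lower in 1. Ifnb1 passed the filter only through the Ifit-high cells and was counted in few of them, so that no fitted fold or p is given for it. Ifng, the gene of interferon gamma, had 0 UMIs in the compared cells of either kind.

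Outside the lists, Gm4955 and the PYHIN gene Pyhin1 rose by 1.79 ± 0.36 and 1.71 ± 0.23. Alas2, the heme synthesis enzyme of red-cell precursors, was called higher; it had UMIs in only 2 of the 138 Ifit-high cells (32 UMIs), and DESeq2 did not call it (adjusted p = 0.926). The 4 genes called lower were Gpnmb, a membrane glycoprotein of lipid-laden macrophages, with 2 UMIs against 305 and a log2 fold change of -3.15 ± 0.76, the macrophage elastase Mmp12, with 8 UMIs against 859 and -2.59 ± 0.59, the chaperone Hspb1 (-1.20 ± 0.31) and the thioredoxin reductase Txnrd1 (-0.85 ± 0.17). In the other cells 173 of the 859 Mmp12 UMIs and 71 of the 305 Gpnmb UMIs came from 1 cell each. DESeq2 did not call Gpnmb, Mmp12 or Hspb1 (adjusted p = 0.629, 0.954 and 0.562). Txnrd1 was not called without library 1-1 or 2-1 (0.0868 and 0.562), nor Hspb1 and Mmp12 without library 2-2 (0.108 and 0.0537), nor Gpnmb without library 1-1 (0.106).

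Cell quality and markers of other cell types were read in the same cells. In the compared clusters Ifit-high cells had a median of 5490 UMIs, 1861 genes and 3.73% mitochondrial counts, and the other cells 4727, 1663 and 3.95%. None of 12 stress and dissociation genes was called by edgeR or DESeq2 (median log2 fold change 0.03), and 1, Atf3, had an unadjusted p under 0.05. Of the marker lists for plasmacytoid dendritic cells, T cells, dendritic cells, monocytes, neutrophils and fibroblasts, 0 of 21 tested genes were called by edgeR or DESeq2, with 1 gene tested for T cells and 1 for fibroblasts. No marker of natural killer cells, B cells, endothelium or smooth muscle passed the filter. Plac8 and S100a8 had an unadjusted p under 0.05. Of the macrophage list 1 of 9 genes, the Fc receptor Fcgr1, rose by 0.90 ± 0.21. Of 8 plasmacytoid markers Klk1 stood at 0 UMIs in Ifit-high cells, and their summed level ran from 126 to 481 CPM over the 10 sums of Ifit-high cells and from 129 to 492 over those of the other cells. Of 5 natural killer markers 4 stood at 0 UMIs, with a summed level of 0 to 19.96 CPM in Ifit-high and 0 to 14.4 in other cells.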

How the data were processed

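The data are 10x Genomics 3' single-cell libraries of aortic CD45+ cells. Per the labels, mapping by the authors used Cell Ranger 3.0.2 and the mm10 genome; Seurat 3.1.1 is named in the submitters' processing notes. Cell filters, doublet removal and clustering settings are not given there, and no doublet caller was run. The deposited values are raw UMI counts per gene and cell, and every one of the 3002 cell sums equals the total deposited by the authors. The percent of mitochondrial counts is the authors' deposited value. A deposited natural log table was not used. No column of samples was left unused (0), and 0 barcodes were shared between libraries.

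Counts were summed per cluster of the authors and biological replicate, with at least 10 cells in each sum, scaled to CPM, and fitted with edgeR 4.0.16 in R 4.3.3 (filterByExpr, TMM, glmQLFit, glmQLFTest, biological replicate as a block since clusters of 1 replicate share their animals). Cells of at least 1000 UMIs were Ifit-high with at least 3 UMIs of the 6 choosing genes; their sums (at least 5 cells each) were compared within each pair of cluster and replicate (9 residual degrees of freedom), with the choosing genes left out of library sizes and test. The 2 biological replicates are few, and where they came from separate animals is not stated, so p-values measure the spread between these sums, which may be technical in part. Tests are two-sided, and adjusted p-values under 0.05 were called. A second count model was DESeq2 1.42.0. The scripts were tested on simulated counts.

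The members, the lists and the tests were chosen with earlier results of these data known. The text names the 10 largest and 5 smallest changes among members tested in Ifit-high cells, up to 4 called members each way in a cluster comparison, members over 100 CPM, up to 10 called pathway genes, and called other genes that moved alike in both replicates and reached 50 CPM (the 8 highest and 5 lowest). Other members are given by role. Oas1a in the cluster 5 comparison, Ifitm3 in the cluster 12 comparison, Gpnmb and Fcgr1 were named after their values were seen. Gene coordinates are from GENCODE M21 on GRCm38. Some genes called in these tests count in the totals but are not reported here by name.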

Additional observations from a re-analysis of the deposited data

Results flagged for a closer look

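In 48 values read over the 4 libraries (46 member levels, the module share and the Ifit-high share), 3 had a library far from the other 3; chance flags about 1 in 20 such groups. Phf11b had 87.5 CPM in library 2-2 against 73.6 to 74.6 in the others. Rsad2 had 80.4 CPM in library 2-1 against 39.6 to 43.7, and Cmpk2 had 15.5 against 3.53 to 4.70 in the same library. In library 2-1, 1 cell of cluster 0 held 151 Rsad2 and 36 Cmpk2 UMIs, 18.8% and 32.1% of all UMIs of these genes; its part in the library values was not tested.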

How the results depend on the processing

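A replicate block was part of each fit; without it 27 other members were called higher in Ifit-high cells, 25 of them among the 29. Over the alternatives of these counts 97 kept within 1.5 times (shares: within 1 SD) and 25 did not; none changed direction. For single named genes 569 kept their side of the threshold, 86 lost a call and 7 gained one. Thinning each cell to 1000 UMIs left 12 members that differed between clusters, 4 higher and 1 lower in macrophage clusters, 2 higher and 1 lower in cluster 5, 0 higher by edgeR (0 at an unadjusted p under 0.05; DESeq2 at full depth called 6) and 4 lower in cluster 12, and 8 higher in Ifit-high cells (22 tested). It moved the Ifit-high share to 0.975%, or 3.23% at 3000 UMIs (added after the data were seen), and the module UMIs in the top 5% of cells to 16.2%. DESeq2 called 6 members higher in cluster 5, median-of-ratios size factors gave 7 lower there, and without clusters 3, 8 and 10 15 were higher in macrophage clusters. The shares of all genes called in these settings are not given here, so these counts are not read as results about the members. The module share was 0.312% without Ifitm3 and Ifi27l2a. Leaving out each library gave 26 to 38 members differing between clusters, 1 to 6 higher and 3 to 6 lower in macrophage clusters, 6 to 11 higher and 1 to 5 lower in cluster 5, 2 to 3 higher in cluster 12, 1 to 28 higher in Ifit-high cells, an Ifit-high share of 6.15% to 8.63% and a top share of 11.6% to 12.8%. The cluster 12 comparison had too few cells without library 1-2 or 2-2. With limits of 2 and 5 UMIs 31 and 26 members were higher in Ifit-high cells, with the other choosing genes 36, and without the cell of 263 UMIs (added after the data were seen) 28. Depth limits the shallow clusters 3, 8 and 10.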
